A study of Mus musculus with 20 samples.

Results

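The genes described here are the mouse beta-defensins with a numbered symbol, 3 cystatins of the reproductive tract subgroup (Cst9, Cst11 and Cst12) and clusterin (Clu). They were chosen by symbol: every array row whose platform annotation gives exactly 1 symbol of the form Defb plus a number, or 1 of 5 named symbols, was taken. The rule found 42 members among the 30142 genes with 1 symbol, namely 38 defensins, 3 cystatins and Clu, each with a single row. Cst8, the fifth named symbol, has no row with 1 symbol, and 4 further defensins (Defb12, Defb37, Defb41 and Defb42) share rows with other symbols and are not members. Of the members, 22 lie on chromosome 8, 14 on chromosome 2, 5 on chromosome 14 and 1 on chromosome 1. The set was put together with results of these arrays in view, so the values of its members are given as a description and carry no test.

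Beta-defensins are small cationic peptides with disulphide bonds that epithelia secrete and that disrupt microbial membranes. Many family members are made mainly in the epididymis, where they coat sperm, while a few, Defb1 and Defb14 among them, are known from epithelia in general, the urinary tract included. Many cystatins inhibit cysteine proteases such as the cathepsins, and the subgroup with Cst8, Cst9, Cst11 and Cst12 is known from the testis and epididymis. Clu encodes an extracellular chaperone that is abundant in the epididymis and in Sertoli cells and is made in many other tissues under stress.

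RNA was measured on 20 Affymetrix arrays of FVB/N mice, a laboratory strain, from bladders and metastases. The label for the mouse line names floxed alleles, that of Rb among them, together with p107-/- (p107 is the product of Rbl1), and it gives no age or sex. They fall into 5 groups, with 7 arrays of tumour bladder, 5 of normal bladder, 3 of treated bladder, 4 of metastases and 1 titled palbo metastasis. Tumours followed inoculation of the bladder with an adenovirus carrying Cre, the recombinase that deletes floxed alleles, and the labels of the normal bladders name no inoculation. Treated mice with tumours received palbociclib, an inhibitor of CDK4 and CDK6, at 150 mg/kg daily for 28 days by intraperitoneal injection, and CDDP (cisplatin) at 6 mg/kg weekly. The organ from which the metastases came is not named, and the palbo metastasis carries the drug in its title only. RNA came from a kit for fixed, embedded tissue, and nothing says that each array is a separate animal, so the spread between arrays may be technical in part.

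All levels below are log2 values made by the authors with RMA, a method that corrects background, normalises arrays to one another and summarises probes. No base of the logarithm stands beside these values, and base 2 was assumed because RMA gives it. A level is read only against other levels of the same gene. Array medians over all rows ran from 5.11 to 5.48. On 8 arrays (normal bladder 4, 5 and 6, tumour bladder 3, 4 and 5, metastasis 3 and 4) dim rows varied more and no other array correlated well with them. The differences of single members are therefore also given over the remaining 12. Those hold normal bladders 1 and 2, tumour bladders 1, 2, 6 and 7, every treated bladder and metastases 1 and 2. Tumour bladder 1 also had noisy dim rows (SD 0.33) but stayed in, because it correlated with tumour bladder 2 (0.65). In whole tissue, fewer cells of a type and less RNA per cell cannot be told apart.

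Most members passed the filter on dim genes, as did 19898 of all 30142 genes, and members varied somewhat more between arrays than genes in general. Their mean levels ran from 4.26 for Defb29 to 7.19 for Defb34, and 29 of the 42 lay at or above 5.10, the 40th percentile used as that filter, and 13 below it. The median SD over the 20 arrays was 0.39 for members and 0.27 for all genes. Only Cst12, with 1.02, had an SD of at least 1, against 1.25% of all genes. A gene was counted as raised on an array where it lay at least 1 above its own median over the 20 arrays. Of the 840 pairs of member and array, 15 were raised, or 1.79%, and the share over all genes was 1.40%. On no array was any of 31 members raised.

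**Figure D1:**
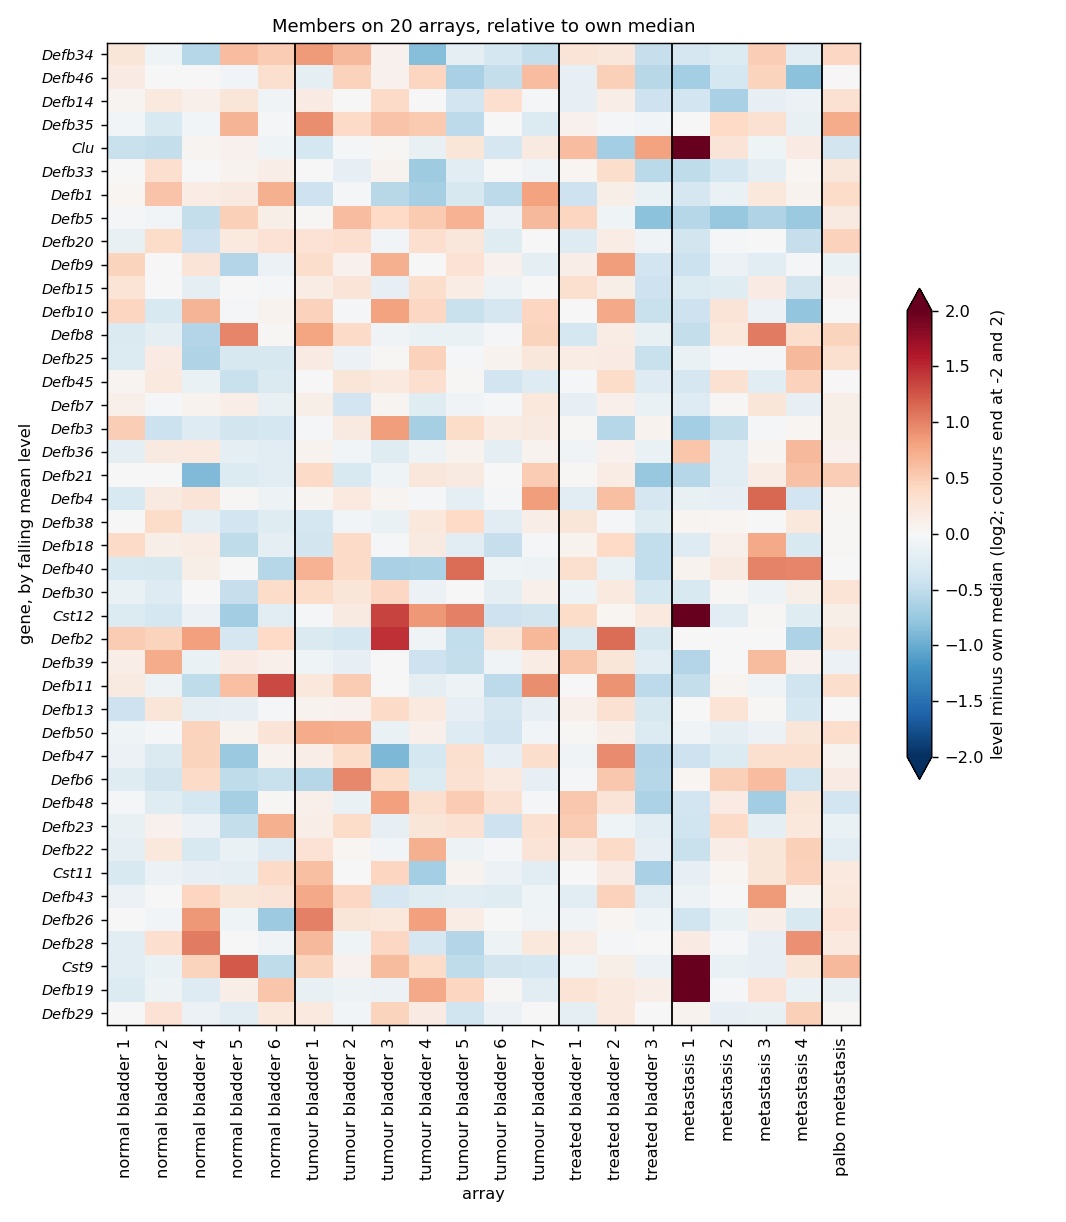
Level of each of the 42 members (rows, by falling mean level) on the 20 arrays (columns, grouped by black lines), as log2 difference from the gene's own median, with colours ending at -2 and 2. The darkest cells are Clu, Cst12, Cst9 and Defb19 on metastasis 1, and the other raised cells are scattered over 8 other arrays.

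No array held more raised members than metastasis 1. On it 4 members were raised (Cst12, Defb19, Clu and Cst9), while 3.03% of all genes were raised there. Each of the 4 also lay more than 1 above every other array, as did 0.206% of all genes, and no other array held any member that far above the rest. On the other arrays 0% to 0.309% of all genes lay that far above the rest. The remaining 11 raised pairs fell on 8 arrays. There were 2 each on tumour bladder 3 (Defb2 and Cst12, with 0.604% of all genes raised), tumour bladder 5 (Defb40 and Cst12, 0.607%) and metastasis 3 (Defb4 and Defb8, 0.64%). Among normal bladders Defb28 was raised on array 4 (0.727% of genes), Cst9 on array 5 (0.597%) and Defb11 on array 6 (0.743%). Defb26 was raised on tumour bladder 1 (2.76%) and Defb2 on treated bladder 2 (1.44%). Because several of these arrays are among the 8 named above, the part of their noise in those calls was not tested.

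Cst12, a cystatin of the reproductive tract subgroup, had the widest range. Its level was 4.77, 4.69, 4.92, 4.34 and 4.83 in normal bladders 1, 2, 4, 5 and 6, and 5.02, 5.22, 6.39, 5.91, 6.04, 4.62 and 4.68 in tumour bladders 1 to 7. In treated bladders 1 to 3 it was 5.41, 5.07 and 5.23, in metastases 1 to 4 it was 9.08, 4.82, 5.06 and 4.80, and in the palbo metastasis it was 5.16. Metastasis 1 stood 2.69 above the next array, tumour bladder 3, the sixth widest such gap among all genes. The 3 tumour bladders with the next levels (3, 4 and 5) are all among the 8 arrays set apart above. The other metastases lay within the range of the normal and tumour bladders.

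Defb19 is a defensin known from the testis. Its level was 3.95, 4.12, 3.96, 4.36 and 4.77 in normal bladders 1, 2, 4, 5 and 6 and 4.07, 4.12, 4.11, 4.98, 4.65, 4.25 and 4.02 in tumour bladders 1 to 7. Treated bladders had 4.498, 4.42 and 4.36, metastases 1 to 4 had 6.91, 4.19, 4.51 and 4.09, and the palbo metastasis had 4.07. Outside metastasis 1 every array lay under 5 and all groups overlapped. The gap to the next array, tumour bladder 4, was 1.93.

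Clu differed from the other 3 in its treated bladders. Normal bladders 1, 2, 4, 5 and 6 had 6.16, 6.13, 6.68, 6.70 and 6.53, and tumour bladders 1 to 7 had 6.26, 6.59, 6.64, 6.46, 6.86, 6.27 and 6.80. Treated bladders 1 to 3 had 7.23, 5.94 and 7.42, metastases 1 to 4 had 9.23, 6.87, 6.53 and 6.78, and the palbo metastasis had 6.25. The treated bladders held both the lowest level of the 20 arrays and the highest outside metastasis 1, which stood 1.80 above it.

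Cst9, also called testatin, had 4.02, 4.11, 4.69, 5.48 and 3.73 in normal bladders 1, 2, 4, 5 and 6 and 4.69, 4.33, 4.88, 4.62, 3.74, 3.87 and 3.89 in tumour bladders 1 to 7. Treated bladders had 4.16, 4.36 and 4.13, metastases 1 to 4 had 6.67, 4.11, 4.09 and 4.495, and the palbo metastasis had 4.89. Metastasis 1 was 1.20 above normal bladder 5, and the other arrays of all groups overlapped.

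Cst11, the remaining cystatin member, had 4.37, 4.55, 4.51, 4.47 and 5.06 in normal bladders 1, 2, 4, 5 and 6 and 5.27, 4.67, 5.11, 3.99, 4.74, 4.55 and 4.45 in tumour bladders 1 to 7. Treated bladders had 4.68, 4.83 and 4.03, metastases 1 to 4 had 4.505, 4.72, 4.91 and 5.13, and the palbo metastasis had 4.87. All groups overlapped, and metastasis 1 was the lowest of the metastases.

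**Figure D2:**
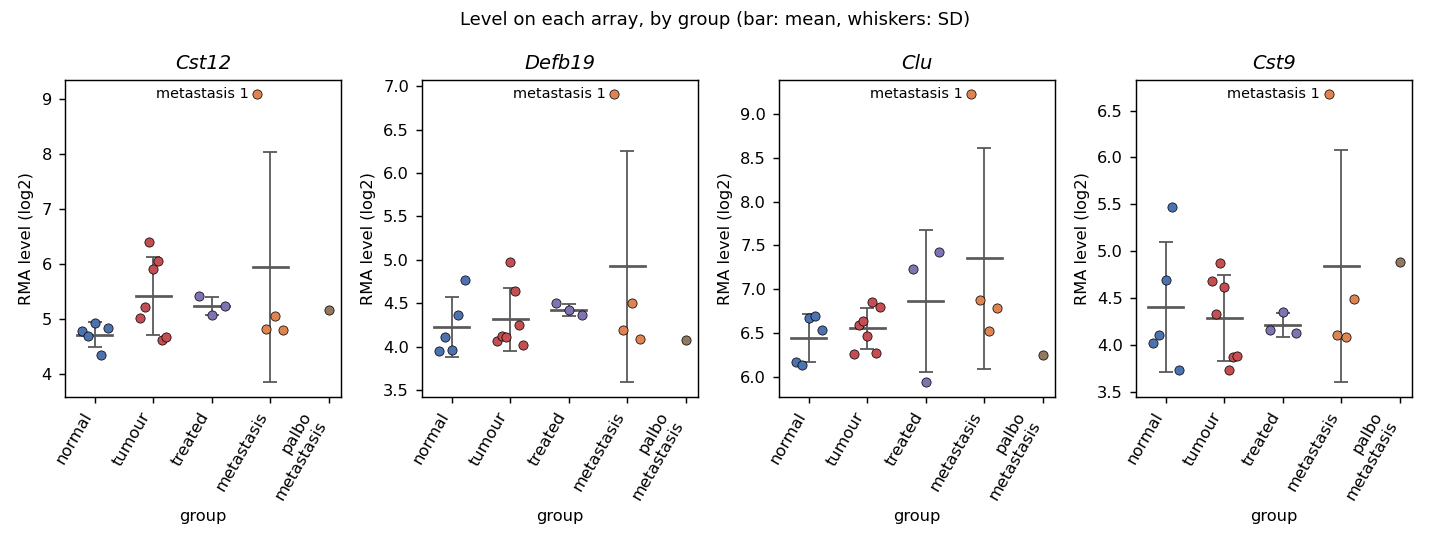
RMA level (log2) of Cst12, Defb19, Clu and Cst9 on each array (points) by group, with the group mean (bar) and SD (whiskers) and a separate axis for each gene. Metastasis 1 (9.08, 6.91, 9.23 and 6.67) lies above all other arrays in each panel, while metastases 2 to 4 lie among the bladders.

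The other 38 members are those left once the 4 raised on metastasis 1 are set aside, so none was raised there by construction. On metastasis 1 they lay between 0.68 below and 0.56 above their own medians, with a median of -0.33. The median over all genes, with no raised genes set aside, was -0.06. A total of 30 of the 38 lay below their own median there, against 59.5% of all genes. Over all 42 members the median was -0.29 on metastasis 1. On treated bladder 3 it was -0.30, where all genes had -0.07.

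The leading cystatins are neighbours on chromosome 2, in a cluster whose order in RefSeq is Cstl1, Cst11, Cstdc1, Cst12, Cst8, Cst13, Cst9, Cstdc2 and Cst3. Cstdc1, a cystatin-domain gene that the member rule does not name, had 8.86 on metastasis 1 and 4.91 to 6.06 on the other 19 arrays. It lies directly beside Cst12, and its gap of 2.79 was the fourth widest of all genes. Cst13, between Cst12 and Cst9, had 4.66 there, inside its range of 4.41 to 5.89, and so did Cstdc2 (5.57 against 5.02 to 6.03) and Cstl1 (6.72 against 6.56 to 7.48). Cst3, which encodes the widely made cystatin C, had 10.8 against 8.44 to 10.7. Of the 8 measured genes of the cluster, Cstdc1, Cst12, Cst9 and Cst3 thus lay above their range on the other arrays, and the other four lay within it. In the defensin cluster of the same chromosome, only Defb19 was raised among 11 members; Defb45 next to it had 5.21 (5.10 to 6.01 elsewhere) and Defb21 on its other side had 4.84 (4.53 to 6.00).

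**Figure D3:**
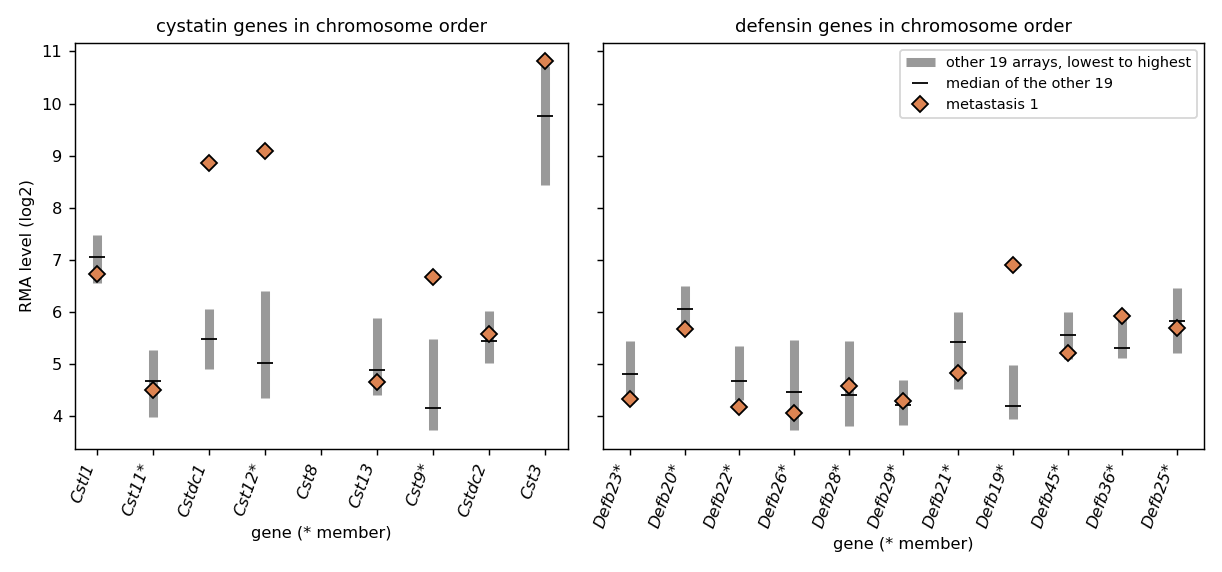
RMA level (log2) of cystatin-cluster genes (left) and chromosome 2 defensins (right) in chromosome order, on metastasis 1 (diamonds) and on the other 19 arrays (grey bars from lowest to highest, tick at the median), each gene to be read against its own bar. Cstdc1, Cst12, Cst9 and Defb19 lie above their bars by more than 1, Cst3 lies just above its bar, and Cst8 has no row.

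The 250 bases before the RefSeq start of the 3 high cystatin-cluster genes are shown because these genes lie together and share the high array. They are on the plus strand of GRCm38.p6, at chr2:148789115-148789364 for Cst12, chr2:148834897-148835146 for Cst9 and chr2:148781759-148782008 for Cstdc1, 5′ to 3′ with motif matches in capitals.
Cst12: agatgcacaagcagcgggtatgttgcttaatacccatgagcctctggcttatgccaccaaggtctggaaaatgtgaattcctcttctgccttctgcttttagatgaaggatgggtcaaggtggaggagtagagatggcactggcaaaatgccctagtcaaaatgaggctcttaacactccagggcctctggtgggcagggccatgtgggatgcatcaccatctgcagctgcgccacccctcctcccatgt
Cst9: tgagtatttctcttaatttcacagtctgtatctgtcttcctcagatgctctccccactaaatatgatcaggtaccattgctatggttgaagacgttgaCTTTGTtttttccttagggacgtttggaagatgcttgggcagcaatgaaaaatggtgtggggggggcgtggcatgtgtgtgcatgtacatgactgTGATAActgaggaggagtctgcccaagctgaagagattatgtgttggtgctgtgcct
Cstdc1: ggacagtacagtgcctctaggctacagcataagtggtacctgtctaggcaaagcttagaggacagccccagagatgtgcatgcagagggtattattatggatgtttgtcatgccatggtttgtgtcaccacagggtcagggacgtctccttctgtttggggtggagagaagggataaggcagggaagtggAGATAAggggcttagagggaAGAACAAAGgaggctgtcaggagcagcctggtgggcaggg
Motifs were searched on both strands in 2 rounds. The first round used the TATA box as TATAAA, a SOX core written as AACAAT, the site of GATA factors as AGATAA, the SF-1 site as AAGGTCA and the half-site of the androgen receptor as AGAACA, which 12.4%, 9.42%, 9.99%, 4.08% and 16.1% of the 32851 windows of this length in the table hold. It matched only Cstdc1, with AGATAA at position -60 and AGAACA at position -40 from the start. Wider forms, for SOX the core ACAAAG together with its variant ACAATG (25.2% of windows) and for GATA any stretch with A or T before the letters GATA and A or G after them (26.5%), were added after the first round had given no match in Cst12 or Cst9. These matched Cst9, with the SOX core on the minus strand at position -152, printed as CTTTGT, and a GATA site at position -57, printed as TGATAA, and Cstdc1, where the SOX core at position -37 overlaps the androgen receptor half-site. Cst12 holds none of the letters of either round. Of the 42 members, 29 have a window, and the forms of the first round occur in 5, 1, 5, 3 and 13 of them, in the order given.

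The label under which these genes were grouped speaks of the epididymis, and the arrays were checked against other genes of that organ. Of 34 measured epididymis genes outside the member rule, 1 was raised on metastasis 1, Eppin, a protease inhibitor of the epididymis and testis, with 6.80 against 4.84 to 5.84 on the other arrays. The mean level of that list was 5.02 on metastasis 1, the 18th of 20 arrays, and 4.93 to 5.38 elsewhere. Of the 34, 2 had their highest level on metastasis 1, Eppin and Wfdc6a. Wfdc6a had 5.72 there against 4.63 to 5.28, or 0.84 above its own median. As a list the other epididymis genes were not high there, and the set is named here by its symbols and not by that organ. The part of that organ in the levels of the members was not tested. None of 8 seminal vesicle, 6 prostate, 12 testis and sperm or 7 female tract genes was raised there. Sycp3, of the testis and sperm list, still had its highest level there (6.79 against 5.32 to 6.55), 0.83 above its own median.

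Some lists of other cell types stood high on metastasis 1. Of 21 genes of Sertoli cells, the somatic cells that surround germ cells, 7 were raised there (Sox9, Wt1, Dhh, Cldn11, Trf, Shbg and Mro). On that array 3.03% of all genes were raised. The highest level fell there for 12 of the 21. The same count was 2 of 34 for epididymis, 1 of 12 for testis and sperm and 7 of 10 for macrophage genes. The share of all genes with their highest level there was not computed. The mean of the Sertoli list was 5.93 against 4.97 to 5.32 on the other arrays. Amh (4.23 against 3.84 to 4.68) and Fshr (5.20 against 4.76 to 5.39), which are also known from that cell type, lay within their ranges. This list, the Leydig list (0 of 5 raised) and a macrophage list (8 of 10 raised, with a mean of 8.25 against 5.71 to 7.997) were chosen after the values had been seen. Luminal urothelium had a mean of 5.54 there, within its wide range of 4.84 to 10.3 on the other arrays, with 0 of 8 genes raised, and smooth muscle had 5.63 within 4.88 to 10.3. The part of any of these cell types in the levels of the members was not tested.

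Since many members are known from the male tract, sex chromosome genes were read as well. Xist, a non-coding transcript made from the silenced X in female cells, had 11.7 on normal bladders 1 and 2, 10.1 on treated bladder 3 and 5.43 to 7.19 on every other array, with 5.44 on metastasis 1. The Y-linked genes Eif2s3y (6.43 against 4.66 to 6.09) and Uty (6.36 against 4.71 to 6.19) had their highest levels on metastasis 1, and Kdm5d (5.44 against 4.72 to 5.64) did not. The normal and treated groups thus mix arrays with high and low Xist, and metastasis 1 is not the only array with low Xist. Over the 12 arrays, normal bladders 1 and 2 are the only normal bladders, while every tumour bladder and metastasis had low Xist. In those differences from normal bladder, Xist level and group cannot be told apart. The part of sex in the differences between groups was not tested.

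Proteases that many cystatins can inhibit were high on metastasis 1 and on arrays without the high cystatins. Whether the cystatin members inhibit any of them was not tested. Of 10 proteases measured, 7 were raised on metastasis 1 (Ctsb, Ctsl, Ctss, Ctsc, Ctsk, Ctsz and Lgmn), with a list mean of 8.05 against 5.92 to 7.88. The next list means were 7.88 on metastasis 2 and 7.60 on the palbo metastasis, where Cst12 had 4.82 and 5.16. Ctsb (10.8 against 10.5), Ctsl (9.60 against 7.82), Ctsk (7.93 against 7.61) and Lgmn (10.6 against 10.1) were higher on metastasis 2 than on metastasis 1. Ctsc, which encodes cathepsin C, was highest on metastasis 1 (11.1 against 6.35 to 9.13). Of 17 other cystatins 4 were raised (Cst3, Cstdc1, Cstb and Ahsg), and of 20 other antimicrobial genes 5 (Lcn2, S100a8, S100a9, Lyz1 and Lyz2). Of 20 inducers and receptors tied to beta-defensins, only Il1a, which encodes the cytokine interleukin 1 alpha, was raised.

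The design implies 5 comparisons between groups. They share arrays, so their values are set side by side and not correlated. In limma, 0 of 30142 genes passed an adjusted p of 0.05 in each of the 5, or 0% of genes, and so 0 members. Without any difference, a share of about 0.05 of the 30142 genes would have an unadjusted p under 0.05. The counts at that level are therefore given as a description and not as genes that differ. Tumour against normal bladder had 1281 genes and treated against tumour bladder had 103. Metastasis against tumour bladder had 1745, and the comparisons with normal bladder had 108 for treated bladder and 2082 for metastasis. In the order just given, the median difference over the 42 members was 0.09, -0.05, -0.02, -0.01 and 0.04, and over all genes it was 0.01, -0.02, -0.03, -0.01 and -0.01. Members above 0 numbered 27, 16, 20, 20 and 24 of 42, where 53.1%, 42.6%, 43.9%, 46.7% and 47.3% of all genes lay above 0.

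**Figure D4:**
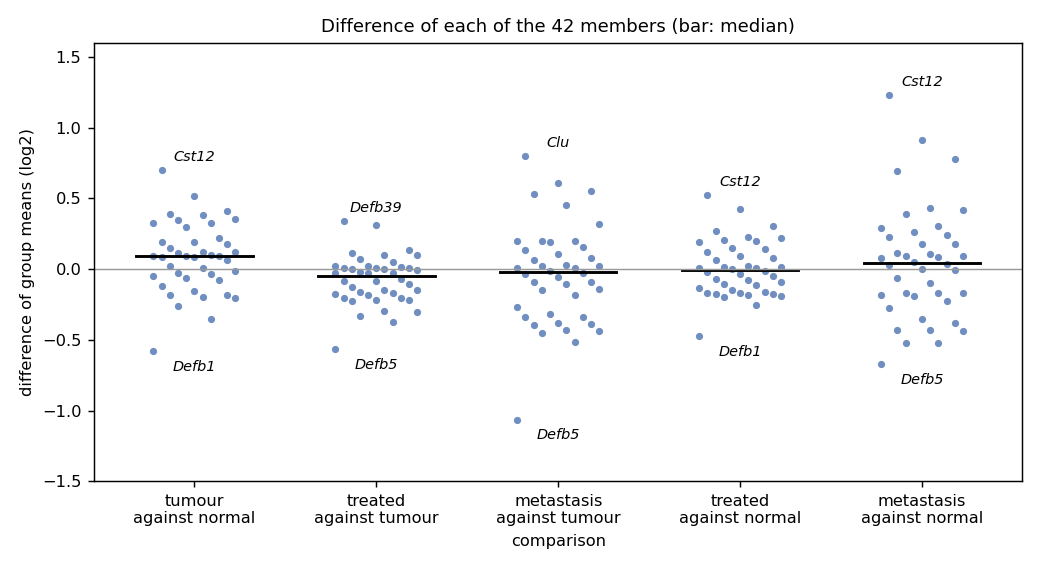
Difference of group means (log2) of each of the 42 members (points) in the 5 comparisons, with the median over members (bar) and the lowest and highest member named. Medians lie within 0.1 of 0, and Defb5 in metastasis against tumour (-1.06) and Cst12 in metastasis against normal (1.23) are the 2 points beyond 1 in size.

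Few members separated any pair of groups. A difference of at least 1 in size was seen for 1 member, Defb5, in metastasis against tumour (0.332% of all genes) and for 1, Cst12, in metastasis against normal (0.776%). Between tumour and normal bladder no member had groups that did not overlap, in either direction (0.0829% of all genes each way). The same held between treated and tumour bladder (0.073% higher, 0.0564% lower). For metastasis against tumour 1 member, Defb5, lay lower without overlap, as did 0.382% of all genes. For treated against normal bladder 1 member, Cst12, lay higher (0.332% of genes). For metastasis against normal bladder 2 members, Defb5 and Defb14, lay lower (1.79% of genes), and none lay higher (1.06%). No member lay higher in metastasis than in tumour (0.123%) or lower in treated than in normal bladder (0.318%).

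Defb5, a defensin of the chromosome 8 cluster, was low in every metastasis. Metastases 1 to 4 had 5.62, 5.43, 5.59 and 5.44, normal bladders 1, 2, 4, 5 and 6 had 6.15, 6.13, 5.71, 6.66 and 6.31, and tumour bladders 1 to 7 had 6.21, 6.81, 6.57, 6.71, 6.88, 6.06 and 6.83. Treated bladders 1 to 3 had 6.61, 6.09 and 5.35, and the palbo metastasis had 6.35. The 4 metastases lay below every normal and tumour bladder, treated bladder 3 lay below them, and the palbo metastasis lay among the bladders. Group means were 5.52 ± 0.10 (SD, n = 4) in metastasis and 6.58 ± 0.32 (SD, n = 7) in tumour, a difference of -1.06, and -0.95 over the 12 arrays. Against normal bladder, at 6.19 ± 0.34 (SD, n = 5), the difference was -0.67, and -0.62 over the 12.

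Defb14, the mouse counterpart of human beta-defensin 3, had 6.72, 6.45, 6.93 and 6.99 in metastases 1 to 4 and 7.15, 7.29, 7.20, 7.35 and 7.03 in normal bladders 1, 2, 4, 5 and 6. The groups did not overlap, but the highest metastasis (6.99) and the lowest normal bladder (7.03) lay close, and tumours 1 to 7 (7.27, 7.11, 7.49, 7.09, 6.72, 7.44 and 7.08) and treated bladders (6.94, 7.23 and 6.69) overlapped both. Means were 6.77 ± 0.24 (SD, n = 4) and 7.20 ± 0.12 (SD, n = 5), a difference of -0.43. Over the 12 arrays it was -0.64, with only metastases 1 and 2 and normal bladders 1 and 2 left. The palbo metastasis, at 7.41, lay above all normal bladders.

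Defb1, made constitutively by many epithelia, had the lowest difference of any member between tumour and normal bladder. Normal bladders 1, 2, 4, 5 and 6 had 6.42, 6.94, 6.52, 6.56 and 7.09, and tumours 1 to 7 had 5.95, 6.33, 5.82, 5.71, 6.06, 5.85 and 7.18. All tumours but tumour bladder 7 lay below every normal bladder, and tumour bladder 7 lay above them all. The means were 6.13 ± 0.50 (SD, n = 7) and 6.71 ± 0.29 (SD, n = 5), a difference of -0.58, and -0.35 over the 12 arrays. Treated bladders (5.95, 6.49 and 6.24) and metastases 1 to 4 (6.04, 6.24, 6.58 and 6.44) overlapped both, and the palbo metastasis had 6.74.

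**Figure D5:**
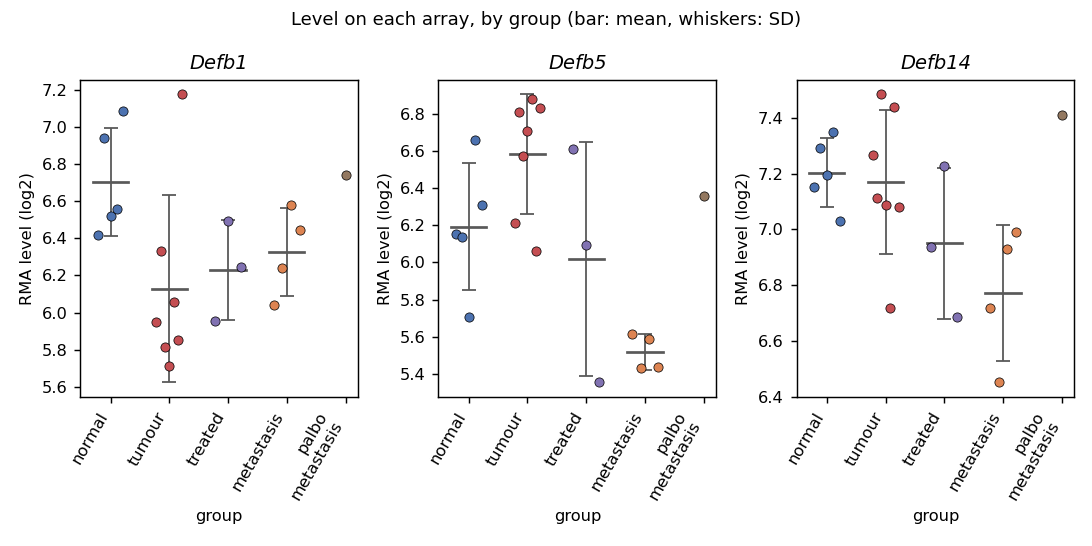
RMA level (log2) of Defb1, Defb5 and Defb14 on each array (points) by group, with the group mean (bar) and SD (whiskers) and a separate axis for each gene. Defb5 in the 4 metastases (5.43 to 5.62) lies below all normal and tumour bladders, and tumour bladder 7 (7.18) is the highest array for Defb1.

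Group means of the 4 leading members followed metastasis 1. Cst12 had 5.94 ± 2.10 (SD, n = 4) in metastasis and 5.41 ± 0.70 (SD, n = 7) in tumour, a difference of 0.53 that became -0.52 without metastasis 1 and 2.07 over the 12 arrays, where metastases 1 and 2 remain. For Clu the difference was 0.80, or 0.17 without that array and 1.57 over the 12. For Defb19 it was 0.61, or -0.05 without it and 1.44 over the 12, and for Cst9 0.55, or -0.06 and 1.20. Against normal bladder the same 4 gave 1.23, 0.91, 0.69 and 0.43 in the order Cst12, Clu, Defb19 and Cst9, then 0.18, 0.29, 0.03 and -0.18 without metastasis 1, and 2.22, 1.90, 1.52 and 1.32 over the 12 arrays. Cst12 in treated bladder, at 5.24 ± 0.17 (SD, n = 3), lay above normal bladder, at 4.71 ± 0.22 (SD, n = 5), by 0.52, and by 0.50 over the 12 arrays. Between tumour and normal bladder its difference was 0.70, and 0.15 over the 12, which leave out the 3 highest tumours.

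Across arrays the mean level of the 42 members ran from 5.15 on treated bladder 3 to 5.66 on treated bladder 2. Among the genes ranked, the 10 most like that mean, by Pearson's r over the 20 arrays, were Wdr17 (0.85), Prl8a2, Sctr, Hnf4g, Tlcd3b, Nlrp4e, Pla2g5, Tmprss15, Prl8a6 and Fbxw19. The ranking left out members and genes with provisional names such as Gm, Rik or LOC. It also left out microRNAs, olfactory and vomeronasal receptors, and T cell receptor and immunoglobulin segments. Treated bladder 3 also had the lowest median over all rows (5.11), while the highest such median was that of tumour bladder 1 (5.48) and not of treated bladder 2 (5.38). Over the 20 arrays, Pearson's r of the member mean with the array median over all rows was 0.75. The part of array scale in the likeness to these genes was not tested. The 4 leading members are a subset chosen after its values were seen. By the same measure, with the same genes left out, genes most like their mean included Akr1cl (0.95), Trank1, Smarca1 and Slc45a4. Akr1cl had 7.08 on metastasis 1 and 4.49 to 5.22 elsewhere.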

How the data were processed

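RNA of 20 samples was hybridised to Affymetrix arrays. The authors deposited log2 levels from RMA, run in Affymetrix Expression Console per the submitters' processing notes, with versions not given in the sources used here. Of 65956 rows the platform annotation names 32750, and the 30604 with exactly 1 symbol were used, after 827 older symbols were updated. Of several rows of a symbol the one with the highest mean was kept, which left 30142 genes. Other engineered genes of the mouse line are not reported here.

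A model with the 5 groups was fitted to all genes in limma 3.58.1 (R 4.3.3), and 5 two-sided comparisons were adjusted by Benjamini-Hochberg over all genes, with a threshold of 0.05. On data simulated with 200 changed genes at a log2 change of 2, tested with the same script, 187 to 198 were recovered, with 5 to 14 false calls. The simulated noise was normal, with the same SD for a gene on every array. It held no noisier arrays and no single high array, so the recovery does not carry over to those or to smaller changes. The palbo metastasis, a single array, was not tested. The number of arrays limits the precision.

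The members and the lists were chosen with earlier results of these data known. Any member could be named, with every array given for the cystatins, Clu and members with an SD of at least 1; Defb1, Defb5, Defb14 and Defb19 were given likewise after their values were seen. Promoter windows and gene order are from RefSeq (GRCm38.p6); the wider SOX and GATA motifs were added after the first search. Alternatives were renewed quantile normalisation, centring, the mean of all rows, a dim filter, 2-group fits, a replicate block and left-out arrays.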

Additional observations from a re-analysis of the deposited data

Results flagged for a closer look

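Within groups of 4 to 7 arrays, 15 of 126 pairs of member and group had an array far from the rest, by the gap to the nearest array over the range of the group. That is 11.9% of pairs, where 5.85% of all pairs of gene and group had one and chance gives about 5%. Members were chosen with these arrays in view, the metastasis 1 levels among them, so this share describes the set and tests nothing. On metastasis 1 these were Cst12 (9.08, the next metastasis at 5.06), Clu (9.23), Defb19 (6.91) and Cst9 (6.67). On metastasis 3 they were Defb4 (6.41) and Defb34 (7.65), both high. On metastasis 4 Defb25 was high (6.45) and Defb2 low (4.46). Among normal bladders, Defb3 was high on array 1 (5.97), Defb6 on array 4 (5.17), Defb35 on array 5 (7.49) and Cst11 on array 6 (5.06). Among tumours, Defb1 (7.18) and Defb4 (6.11) were high on tumour bladder 7 and Defb33 (5.91) was low on tumour bladder 4. Metastases 3 and 4, normal bladders 4, 5 and 6 and tumour bladder 4 are among the 8 arrays set apart for noisy dim rows and low correlation. The part of their noise in these values was not tested.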

How the results depend on the processing

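In limma, the 0 genes called stayed 0 in each comparison under every alternative run except 3. Without the 8 arrays that stand apart, 3 genes passed for metastasis against tumour and the same 3 for metastasis against normal. These were Ahsg, Ctsk and Lyz1, all higher in metastasis, where only metastases 1 and 2 were left. All are named above among the list genes raised on metastasis 1. With only the 2 groups compared, 1 gene, Gm3534, passed for metastasis against normal. No member passed in any setting. Leaving out each array gave 0 throughout. The median member difference for metastasis against tumour, -0.02, was -0.20 without the 8 arrays and -0.10 to 0.03 with an array left out. For metastasis against normal, 0.041, it was -0.065 without dim genes, 0.10 with arrays centred, -0.13 without the 8 arrays, and -0.038 (without normal bladder 5) to 0.073 with an array left out. With the replicate number as a block it was -0.026; same-numbered arrays deviated with correlations from -0.59 to 0.32, so the numbers were not taken to pair samples, and the block gave 0 calls. For treated against normal, -0.01, it was -0.13 to 0.15 with an array left out, 0.15 without treated bladder 3. For treated against tumour the range was -0.20 to 0.09, and for tumour against normal 0.05 to 0.12. Raised pairs of member and array numbered 4 in place of 15 at a threshold of 2, and all 4 were on metastasis 1. The share of all genes raised at that threshold was not computed, so the 4 pairs are a description only. At the threshold of 1, 3.03% of all genes were raised on metastasis 1. The causes were not tested. The gaps of the leading members on metastasis 1 kept their direction under renewed normalisation and centring, Cst12 at 2.42 to 2.89 and Cst9 at 1.13 to 1.40. Each rests on 1 array.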
